A study of Mus musculus with 21 samples.

Results

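The cytoplasmic ribosomal protein genes code for the protein part of the ribosomes that translate nuclear mRNAs. They were taken from the gastrocnemius count table by symbol (Rps or Rpl with a family number, Rplp0 to Rplp2, and Rpsa), leaving out the S6 kinases, symbols that contain -ps, Rps19bp1 and Rpl7l1. Rpl6l, annotated as a processed pseudogene but without -ps in its symbol, was kept. Of 40853 genes in the table, 89 symbols matched and 84 of them averaged at least 10 counts over the 21 libraries, 34 of the small subunit and 50 of the large subunit. All 84 also passed the filter on low counts and were among the 16129 genes tested. The 5 matching symbols under the minimum were Rpl10l, Rpl28, Rpl32l, Rpl39l and Rps23rg1.

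Poly(A)-selected RNA of the gastrocnemius (medial belly) had been sequenced in 3 groups of 7 female C57BL/6NJ mice, which entered the study at 10 weeks of age. Active mice ran on a treadmill for 6 weeks, 5 d/week, in sessions that opened with a slower warm up and went on at about 70% of their own maximal speed for a time that was lengthened over the first weeks. Activity Reduction mice had the same training for 4 weeks and then 2 weeks without it. Inactive mice were not trained. Every mouse, Inactive mice included, completed graded maximal running tests, the last of them a few days before collection, and was fasted before the muscle was taken. The libraries held 38482455 to 49211581 counts in Active, 48906675 to 55773226 in Activity Reduction and 49284630 to 59785132 in Inactive mice, so every Active library was shallower than every Inactive one.

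A ribosome is built from a small (40S) subunit, which reads the mRNA, and a large (60S) subunit, which joins amino acids. Nearly all of their proteins are needed in equal number, and their transcripts are known to vary together. The mRNAs carry a run of pyrimidines at their 5′ end, the 5′ terminal oligopyrimidine (TOP) motif, through which mTORC1 and LARP1 set how much of each mRNA is translated. Loading and unloading of skeletal muscle are known to alter ribosome content.

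The annotated start sites were examined for such a run first, since the motif is the known link between these mRNAs and mTORC1. RefSeq promoter sequences (build GRCm38.p6) were matched for 62 of the 84 members. Where a gene had several promoters, the one with the longest run was taken, for members and other genes alike. An unbroken run of at least 8 C or T, on the sense strand, lay between 20 bases before and 10 bases after the start in 27 of them (43.5%), in 9 of 25 small subunit genes and 18 of 37 large subunit genes. The same window held such a run in 14.5% of all 27025 genes of the promoter table, in 17.4% of 69 mitochondrial ribosomal protein genes and in 5.56% of 36 ribosome biogenesis genes. A match describes these letters only, and an annotated start can lie some bases from the one used. The 30 bases of some of the members named below are printed 5′ to 3′ on the sense strand, with the longest C/T run in capitals. They do not stand for all members with a small p. Of those not printed, Rps26 held a longest run of 7, Rps3a1 of 5, Rpl24 of 2 and Rpl27a of 14 bases. Rpl7a held a run of 21 and Rpl4 of 14 bases, and Rpl3l, the muscle paralog of Rpl3, had none longer than 4.
Rpl4 (chr9:64173367-64173396, plus strand): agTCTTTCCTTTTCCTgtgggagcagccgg
Rpl7a (chr2:26910787-26910816, plus strand): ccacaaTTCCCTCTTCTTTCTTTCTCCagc
Rps6 (chr4:86857358-86857387, minus strand): gggttaagcggaagtcgggCCTCTTTTTCg
Rpl14 (chr9:120571497-120571526, plus strand): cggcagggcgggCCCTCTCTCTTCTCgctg
Rpl12 (chr2:32961692-32961721, plus strand): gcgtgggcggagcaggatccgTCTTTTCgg
Rpl22l1 (chr3:28805488-28805517, plus strand): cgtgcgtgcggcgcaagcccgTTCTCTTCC
Rpl22 (chr4:152324416-152324445, plus strand): atcagcgctgCTTCTggaatgttccagctc
Rpl3l (chr17:24727806-24727835, plus strand): cagctgagtgTTCTagctctgtcatttgac

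The labelled tissue was checked first, and all 12 fibre markers were present, with a summed level of 194000 to 239000 CPM (counts scaled to library size with edgeR's TMM factors). Liver transcripts were also present. In the 8 libraries whose samples are labelled M304 to M311 (5 Active, 2 Activity Reduction and 1 Inactive mouse) Alb stood at 377 to 1120 CPM, and in the 13 libraries labelled M312 to M325 (2 Active, 5 Activity Reduction, 6 Inactive) at 73.0 to 161 CPM. This division is uneven over the groups, so results are given with it held constant and within the later numbers. The labels do not say what the numbers stand for.

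Ribosomal protein transcripts took up a small and steady share of the muscle transcriptome. The 84 genes held 1.20 to 1.315% of the counts in Inactive mice (median 1.24%), 1.15 to 1.302% in Active mice (median 1.23%) and 1.225 to 1.401% in Activity Reduction mice (median 1.28%). The groups overlapped, and the highest value of the study, in Activity Reduction replicate 6, stood apart from the next in its group, 1.301%. In bulk muscle, a change in the number of cells that make many ribosomes cannot be told apart from a change in the RNA of each cell.

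Both subunits followed the same course. Small subunit genes made up a median of 0.476% of counts in Inactive, 0.475% in Active and 0.494% in Activity Reduction mice, with ranges of 0.456 to 0.507%, 0.443 to 0.5003% and 0.467 to 0.542%. Large subunit genes made up a median of 0.764%, 0.758% and 0.784%, with ranges of 0.744 to 0.808%, 0.706 to 0.802% and 0.758 to 0.859%. The ratio of large to small subunit counts lay between 1.57 and 1.63 in every library, with medians of 1.609, 1.603 and 1.589 in the same order of groups.

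**Figure D1:**
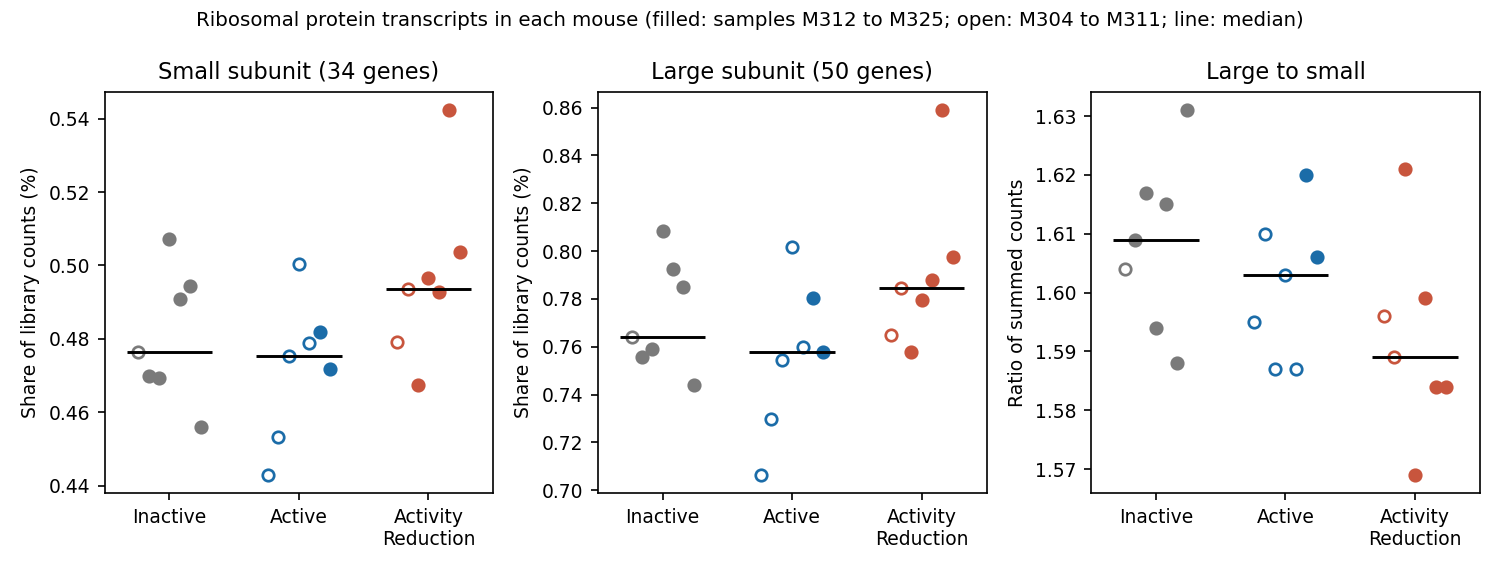
Share of each library's counts on small subunit genes, on large subunit genes (%), and the ratio of the sums, for the 7 mice of each group. Points are mice, lines are medians, and open points are samples M304 to M311. The groups overlap in each panel, and Activity Reduction replicate 6 is the highest in both shares (0.542% and 0.859%).

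The members shared their extremes among few mice. Of the 84 genes, 71 had their highest CPM of the study in Activity Reduction replicate 6, while 35 had their lowest in Active replicate 1 and 18 in Activity Reduction replicate 1. The group median was highest in Activity Reduction mice for 75 genes, in Inactive mice for 7 and in Active mice for 2, and it was lowest in Active mice for 61. Spread over the 21 libraries was small, with a median coefficient of variation of 7.59%, from 3.86% for Rpl7 to 42.3% for Rpl6l, a processed pseudogene.

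Levels per length differed between members more than the groups did. Per kilobase of coding sequence, the level averaged over all libraries had a median of 248 CPM in 34 small subunit genes and of 256 CPM in 48 large subunit genes. Highest in the small subunit were Rps2 with 891, Rps14 with 549 and Rps24 with 448 CPM per kb. Highest in the large subunit were Rpl41, the shortest of the proteins, with 920, and the stalk genes Rplp1 with 779 and Rplp0 with 688 CPM per kb. Counts were per gene while the length left out untranslated sequence, so genes with short coding sequences may rank too high. Before division Rpl41, with 75 bp of coding sequence, stood at 69 CPM and Rplp0 at 654 CPM. The stalk (Rplp0 with Rplp1 and Rplp2) recruits the translational GTPases, and Rplp2 lay at 253 CPM per kb, near the middle of the family. Rpl37rt, annotated as a long noncoding RNA, and Rpl6l had no coding length.

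A few members were listed far below the rest. Rps27rt, a retrotransposed copy of Rps27, stood at 7.30 CPM per kb, and Rps4l, a copy of the X-linked Rps4x, at 1.78. In the GENCODE annotation Rpl28, which averaged 5.43 counts and so fell under the minimum, is covered to 43.1% by Ube2s on the other strand. Whether reads were assigned by strand is not given in the sources used here, so the level of such overlapping genes is uncertain. Copies of at least 95% identity to the coding sequence exist elsewhere in the genome for most members, 40 of them for Rpl7a and 30 for Rps2, and reads shared with such copies may not have been counted.

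**Figure D2:**
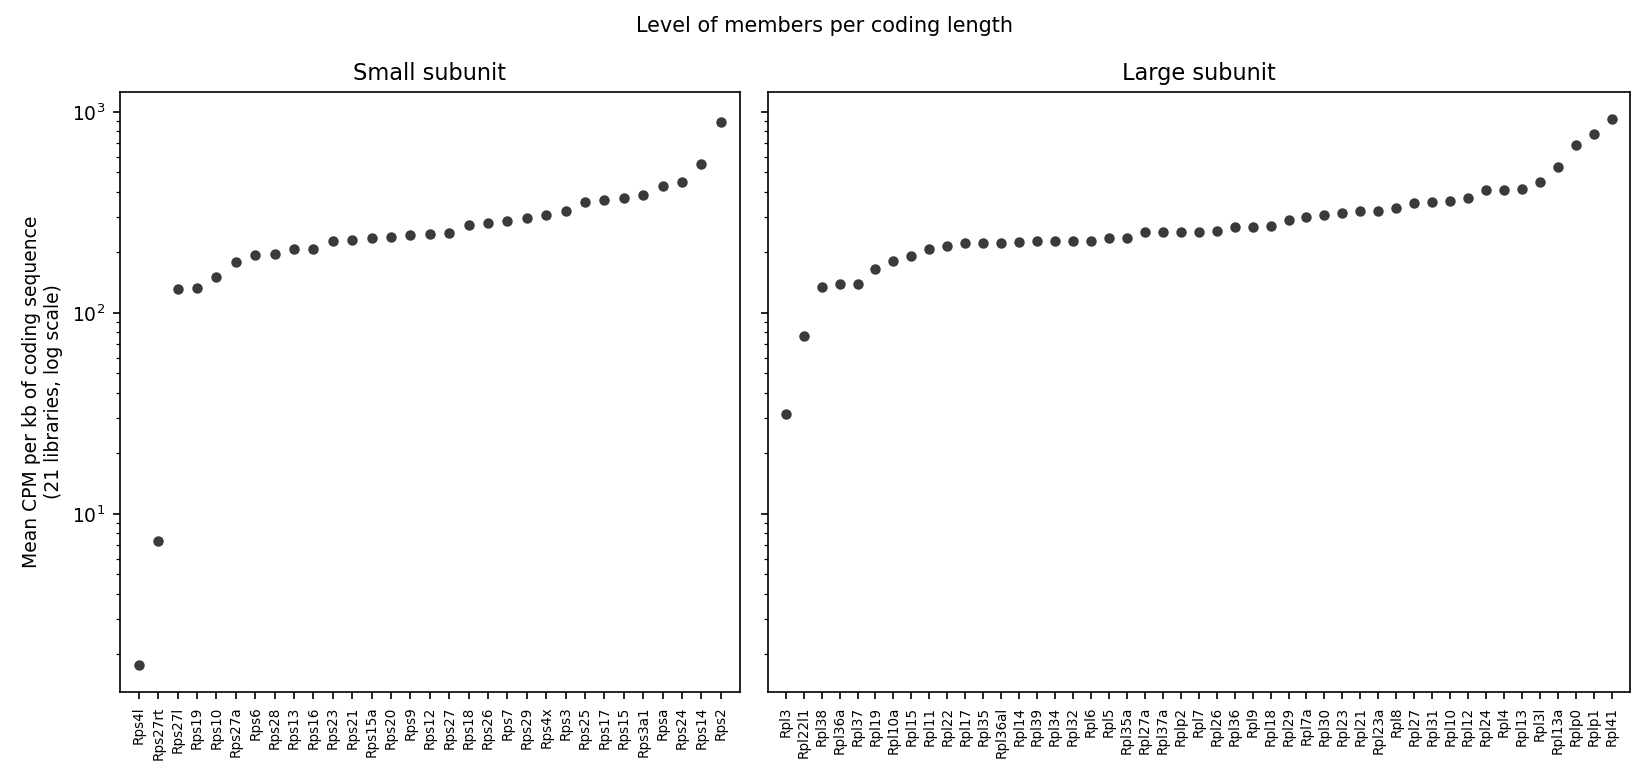
Mean level of members per kilobase of coding sequence (CPM per kb, log scale) over the 21 libraries, in rising order within each subunit. Most genes lie near the medians of 248 and 256 CPM per kb, with Rps4l, Rps27rt, Rpl3 and Rpl22l1 below the others.

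Paralog pairs gave the sharpest differences in level. Rpl3 reaches toward the peptidyl transferase centre of the 60S subunit, and Rpl3l replaces it in ribosomes of striated muscle. Rpl3l was listed at 447 CPM per kb against 31.6 for Rpl3, the lowest of the large subunit. Copies of at least 95% identity number 7 for Rpl3 and 0 for Rpl3l, so uncounted shared reads could lower Rpl3 alone. The ratio of Rpl3l to Rpl3 counts, genes of nearly equal coding length, was 12.2 to 16.7 in Inactive (median 14.7), 12.8 to 14.3 in Active (median 13.1) and 13.1 to 18.8 in Activity Reduction mice (median 15.2), with overlap of all groups. Rpl22, an RNA-binding 60S protein, stood at 215 CPM per kb and Rpl22l1 at 76.5. Rps27 stood at 249 and Rps27l, which is induced by p53, at 132 CPM per kb. Rpl36al, with 224, exceeded Rpl36a, with 139 CPM per kb. Such copies number 2 for Rpl22 and 4 for Rpl22l1, 4 for Rps27 and 0 for Rps27l, and 6 for Rpl36a and 2 for Rpl36al. Rpl10l and Rpl39l, which are known from testis, averaged 0 and 0.667 counts, while Rpl10 and Rpl39 stood at 360 and 228 CPM per kb.

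The comparison of Activity Reduction with Active mice asked what 2 weeks without training changed. Ribosomal protein transcripts were slightly higher after the reduction, in both subunits alike. In edgeR's quasi-likelihood test 46 of the 84 members (54.8%) were higher at an unadjusted p under 0.05, and none was lower. Among all 16129 genes tested, 6.89% were higher and 6.44% lower by the same rule. The 46 comprised 18 of 34 small subunit genes and 28 of 50 large subunit genes. The log2 fold change was above 0 in 82 of 84 members, against 49.8% of all genes. Its median was 0.12 in each subunit and -0.001 over all genes, and the quartiles of the members were 0.09 and 0.14. Because the members shared their extremes among few mice, these counts are not 84 separate observations.

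None of these differences held after adjustment over all genes in edgeR, and none met both thresholds in DESeq2. No member reached an adjusted p under 0.05 with a log2 fold change beyond 0.25 in edgeR, where the background was 0%, and the smallest adjusted p was 0.129. DESeq2 gave 47 members higher at an unadjusted p under 0.05, where 4.15% of its genes were higher. Its adjusted p was 0.0226 for Rpl4 and 0.0405 for Rpl7a, but 0 members had a log2 fold change beyond 0.25 as well. The share of all genes past both thresholds was not taken in DESeq2. No member had groups that did not overlap, while 28 of the 16129 genes tested were higher and 18 lower without overlap.

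**Figure D3:**
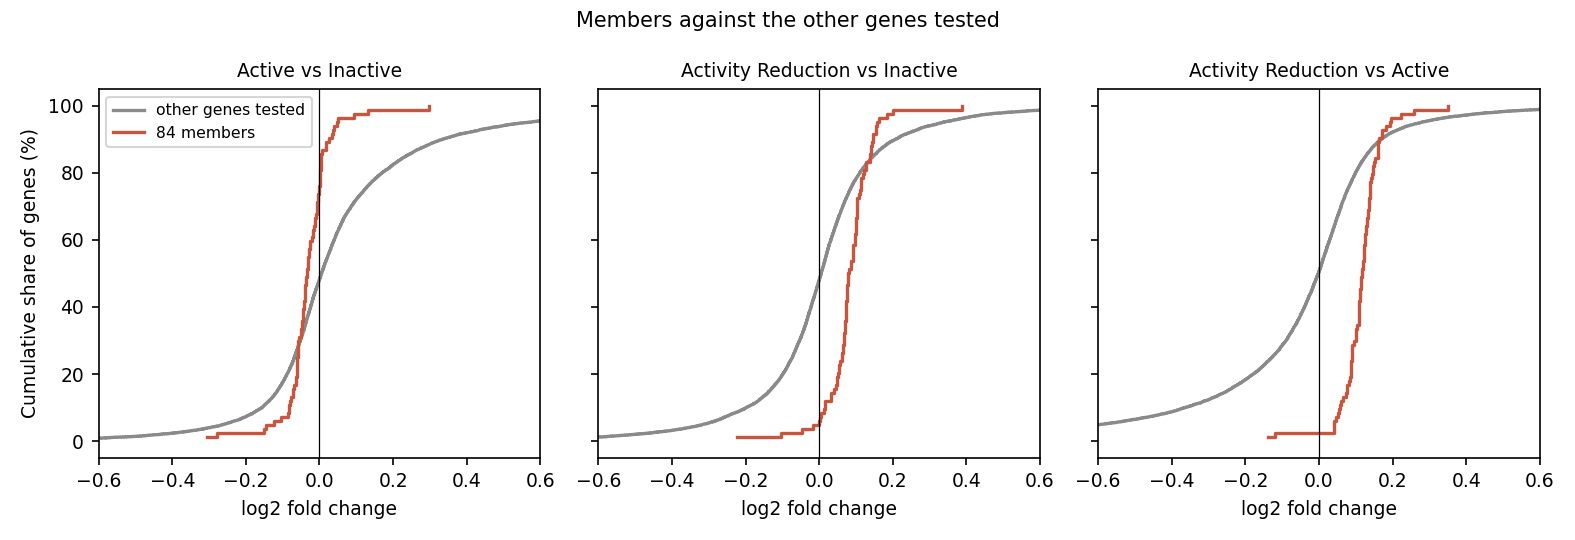
Cumulative share (%) of the 84 members and of the other genes tested by log2 fold change (edgeR) in each comparison; tails beyond the axis are not drawn. The members' curve is steep and lies right of the other genes in Activity Reduction against Active mice (median 0.12 against -0.001 for all genes) and less so against Inactive mice (median 0.08), and slightly left of 0 in Active against Inactive mice (median -0.034).

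Among the large subunit genes the smallest p belonged to Rpl4, whose protein reaches into the nascent chain tunnel. Rpl4 stood at 466 to 535 CPM in Active mice (median 492) and at 526 to 548 CPM in Activity Reduction mice (median 534). All but 1 Active mouse lay below every Activity Reduction mouse. For Rpl4 the log2 fold change was 0.11 ± 0.030 (SE), with an edgeR p of 0.00106 and adjusted p of 0.129, and a two-sided exact permutation test of mean log2 CPM gave p = 0.00291.

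Rpl7a, another 60S protein, had 209 to 238 CPM in Active mice (median 223) and 230 to 270 CPM in Activity Reduction mice (median 242). The groups overlapped in a narrow band. The log2 fold change was 0.15 ± 0.041 (SE), with an adjusted p of 0.143 in edgeR and an exact permutation p of 0.00641. Rpl24 (0.15), Rpl14 (0.14), Rpl17 (0.12), Rpl27a (0.12) and Rpl6 (0.11), other proteins of the 60S subunit, had log2 fold changes of similar size, and edgeR adjusted p for these 5 genes lay between 0.173 and 0.187.

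In the small subunit Rps26, which sits at the mRNA exit channel, had 84.3 to 98.9 CPM in Active mice (median 91.2) and 91.2 to 116 CPM in Activity Reduction mice (median 100.3). The groups overlapped between 91.2 and 98.9 CPM. Its log2 fold change was 0.16 ± 0.046 (SE), with an adjusted p of 0.143 in edgeR and an exact permutation p of 0.00758.

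Rps6, the 40S protein phosphorylated by the S6 kinases downstream of mTORC1, had 130 to 145 CPM in Active mice (median 134) and 140 to 156 CPM in Activity Reduction mice (median 151). Several Active mice reached into the lower part of the other group. Its log2 fold change was 0.12 ± 0.036 (SE), with an adjusted p of 0.154 in edgeR and an exact permutation p of 0.0035. Rps3a1 (0.11), Rps9 (0.13), Rps14 (0.14), Rps2 (0.12) and Rps24 (0.12) followed by p, with edgeR adjusted p from 0.154 to 0.235.

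Members with a defined role outside the bulk of the subunit, and the paralogs, differed in whether they passed. Of the stalk, Rplp1 (0.14) and Rplp2 (0.17) were among the 46, and Rplp0 was not, with a log2 fold change of 0.059 ± 0.032 (SE). Rpsa, the 40S protein also known as the laminin receptor, was among them (0.083), as was Rpl11 (0.10), but its partner in the 5S particle that binds MDM2, Rpl5, was not (0.076 ± 0.043). Rpl3, at -0.12 ± 0.074, and Rps4l, at -0.14 ± 0.16, were the 2 members below 0. Rpl3l gave 0.041 ± 0.036. Rps27 (0.19) was among the 46, and Rps27l (0.11 ± 0.058) was not. Rpl36a (0.17) was also among them, and Rpl36al (0.11 ± 0.080) was not. Differences between paralogs were not tested.

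**Figure D4:**
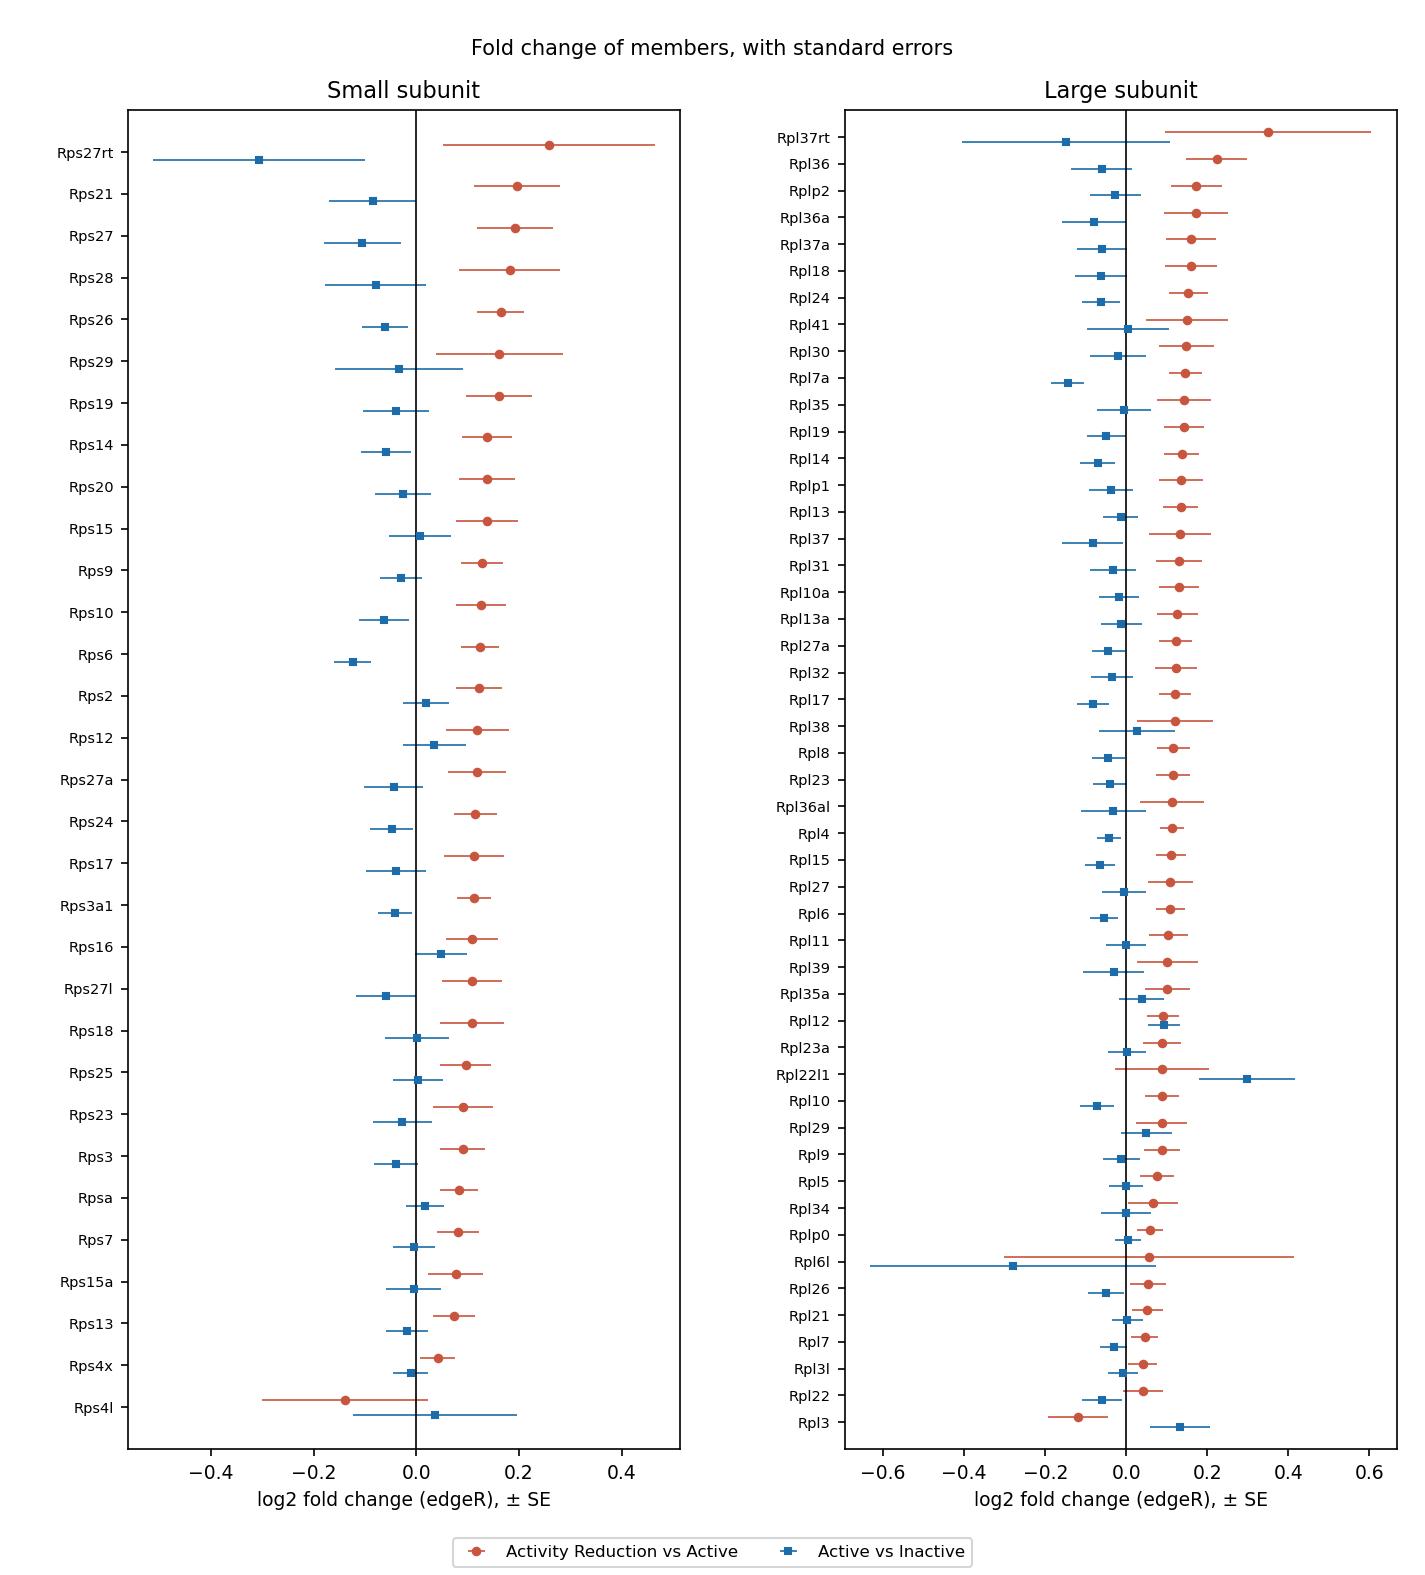
Log2 fold change (edgeR) of members, with bars of 1 SE, in Activity Reduction against Active mice (circles) and Active against Inactive mice (squares), sorted by the first. Both comparisons use the same 7 Active libraries. Of the genes drawn, Rpl3 and Rps4l have circles left of 0, and most squares lie left of 0.

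Members with and without a pyrimidine run of at least 8 bases at the start had like fold changes. The 27 members with a run of at least 8 had a median log2 fold change of 0.12, with 17 higher at an unadjusted p under 0.05. The 35 members with shorter runs had a median of 0.11, with 18 higher. Their runs reached 7 bases, so they were not a set without the motif, and this split cannot show its part. Rpl4 and Rpl7a, printed above with runs of 14 and 21 bases, and Rps26, with 7, had fold changes of like size.

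Other transcripts of the translation apparatus were mostly on the same side. Of the ribosomal proteins outside the naming rule, Rack1 (0.12 ± 0.035 SE) and Fau (0.15 ± 0.067) were higher at an unadjusted p under 0.05. Of 29 initiation factors 10 were higher and 0 lower (median 0.068), led by the eIF3 subunits Eif3l (0.13) and Eif3b (0.12). Of 41 ribosome biogenesis genes 10 were higher and 0 lower (median 0.08), with Rrp12 (0.16), which exports pre-ribosomes, and Bop1 (0.17), which processes 60S rRNA, first by p. Of 17 regulators 8 were higher and 0 lower (median 0.081), among them the translational repressor Eif4ebp2 (0.14) and the RNA polymerase III repressor Maf1 (0.14). Of 7 elongation factors 4 were higher, Eef1g (0.11) among them, and Eef1a1, the elongation factor that muscle replaces with Eef1a2, was lower (-0.28 ± 0.076). Of 18 other TOP mRNAs, a list that includes some of these genes, 7 were higher and 1 lower (median 0.11), led by Btf3 (0.13). Of 78 mitochondrial ribosomal protein genes 13 (16.7%) were higher and 0 lower, with a median of 0.052, where 6.89% of all genes were higher. Differences between the lists were not tested. The smallest edgeR adjusted p in these lists was 0.105, for Btf3.

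Markers of other cells moved with this comparison, where 6.89% of all genes were higher and 6.44% lower at an unadjusted p under 0.05. Of 8 fibroblast markers 7 were lower in Activity Reduction than in Active mice at an unadjusted p under 0.05, with a median log2 fold change of -0.39, and the summed level was 432 to 638 CPM against 564 to 879 CPM. Of 8 macrophage markers 3 were lower (15.5 to 37.2 against 27.4 to 42.6 CPM summed), as were 3 of 8 endothelial markers (205 to 236 against 222 to 278 CPM). None of the 20 liver markers passed, with a median log2 fold change of -0.91 and summed levels of 191 to 1660 against 228 to 2080 CPM. Markers of satellite cells, the stem cells of muscle, lay on the other side, with Cdh15 (0.18 ± 0.065 SE) and Myod1 (0.37 ± 0.14) of 6 higher, a median of 0.182 and summed levels of 42.7 to 52.6 against 39.3 to 45.6 CPM. One of 6 tendon markers, Scx (0.40), and 1 of 12 fibre markers, Actn3 (0.11), were also higher. Of 5 erythroid, 8 adipocyte and 6 Schwann cell markers none passed. None of these markers was at 0 in all libraries. Their part in the ribosomal protein result was not tested, and neither was that of depth.

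Sample label, gene length and single mice also moved with it. With the M304 to M311 and M312 to M325 divisions held constant, 21 members were higher and 0 lower, with a median of 0.079. Of all genes 5.54% were higher in that fit. Within samples M312 to M325, 5 Activity Reduction mice were set against 2 Active mice. There 2 members were higher, near the share of all genes (2.02%), and the median was 0.087, with 81 above 0. Other coding genes of up to 500 bp had a median log2 fold change of 0.038, with 13.6% higher, against -0.028 for those over 4000 bp, while the 50 members of up to 500 bp had a median of 0.12. With the length trend removed in each library, 35 members were higher (7.89% of all genes), with a median of 0.089. The count fell to 24 without Activity Reduction replicate 6 (median 0.083) and rose to 62 without Activity Reduction replicate 1. In those fits 5% and 6.33% of all genes were higher. Scaled by library totals in place of TMM, which moved the median of all genes to -0.039, 15 members were higher and 1 lower. Of all genes 2.59% were then higher and 9.83% lower.

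The comparison of Activity Reduction with Inactive mice asked whether previously trained muscle differed from muscle that was never trained. Ribosomal protein transcripts were again on the higher side, by less. In edgeR 22 members (26.2%) were higher at an unadjusted p under 0.05 and none lower, where 4.19% of all genes were higher and 3.54% lower. These were 10 of 34 small subunit and 12 of 50 large subunit genes. The log2 fold change was above 0 in 79 of 84, with a median of 0.078 in the small and 0.083 in the large subunit and 0.006 over all genes. No member passed both thresholds after adjustment, against 0.0124% of all genes. DESeq2 gave 18 members higher at an unadjusted p under 0.05, where 2.39% of its genes were higher. It also gave 0 past both thresholds, a rule for which its share of all genes was not taken. It gave no adjusted p for Rpl22l1 (log2 fold change 0.38, unadjusted p of 0.000869), which is left out of that 0.

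Rpl12, a protein at the base of the 60S stalk that helps hold elongation factors, differed most by p. It stood at 167 to 178 CPM in Inactive mice (median 173), 169 to 192 CPM in Active mice (median 189) and 186 to 223 CPM in Activity Reduction mice (median 193). Every Activity Reduction mouse lay above every Inactive mouse, and the Active mice overlapped both groups. Rpl12 was the single member without overlap in this comparison, where 11 of the 16129 genes were higher without overlap.

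For Activity Reduction against Inactive mice the log2 fold change of Rpl12 was 0.18 ± 0.039 (SE), with an adjusted p of 0.159 in edgeR and 0.0083 in DESeq2. The two-sided exact permutation test gave p = 0.000583, the smallest value it can give for these group sizes. Against Active mice the log2 fold change was 0.090 ± 0.039 (SE). A gene on the opposite strand, Lrsam1, covers 17.2% of the exons of Rpl12.

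Rpl22l1, the paralog of Rpl22 that can stand in for it in the 60S subunit, had the largest fold change. It stood at 19.8 to 28.5 CPM in Inactive (median 23.3), 24.4 to 35.4 CPM in Active (median 28.4) and 21.3 to 40.1 CPM in Activity Reduction mice (median 32.6). The groups overlapped, and the 2 Activity Reduction mice labelled below M312 were the lowest of their group. For Rpl22l1 the log2 fold change was 0.39 ± 0.12 (SE), with an adjusted p of 0.409 in edgeR and an exact permutation p of 0.0262. Rpl22 itself differed little, with 79.4 to 91.5 CPM in Inactive (median 84.04) and 75.8 to 92.0 CPM in Activity Reduction mice (median 81.7) and a log2 fold change of -0.018 ± 0.050 (SE).

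Rps2, the 40S protein at the mRNA entry site, had 714 to 810 CPM in Inactive (median 747) and 730 to 918 CPM in Activity Reduction mice (median 834). Rps16, a protein of the 40S head, had 82.7 to 94.7 CPM (median 85.1) and 86.3 to 113 CPM (median 95.4). Both pairs of groups overlapped. The log2 fold changes were 0.14 ± 0.044 (SE) for Rps2 and 0.16 ± 0.050 for Rps16, with edgeR adjusted p of 0.426 and 0.445. Rpl4 (0.069), Rpl13 (0.12), Rpl35a (0.14), Rplp2 (0.15), Rpl13a (0.11), Rpl10a (0.11) and Rpl11 (0.10) of the large subunit and Rpsa (0.10), Rps12 (0.15), Rps9 (0.099), Rps15 (0.14) and Rps26 (0.10) of the small subunit were also among the 22.

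**Figure D5:**
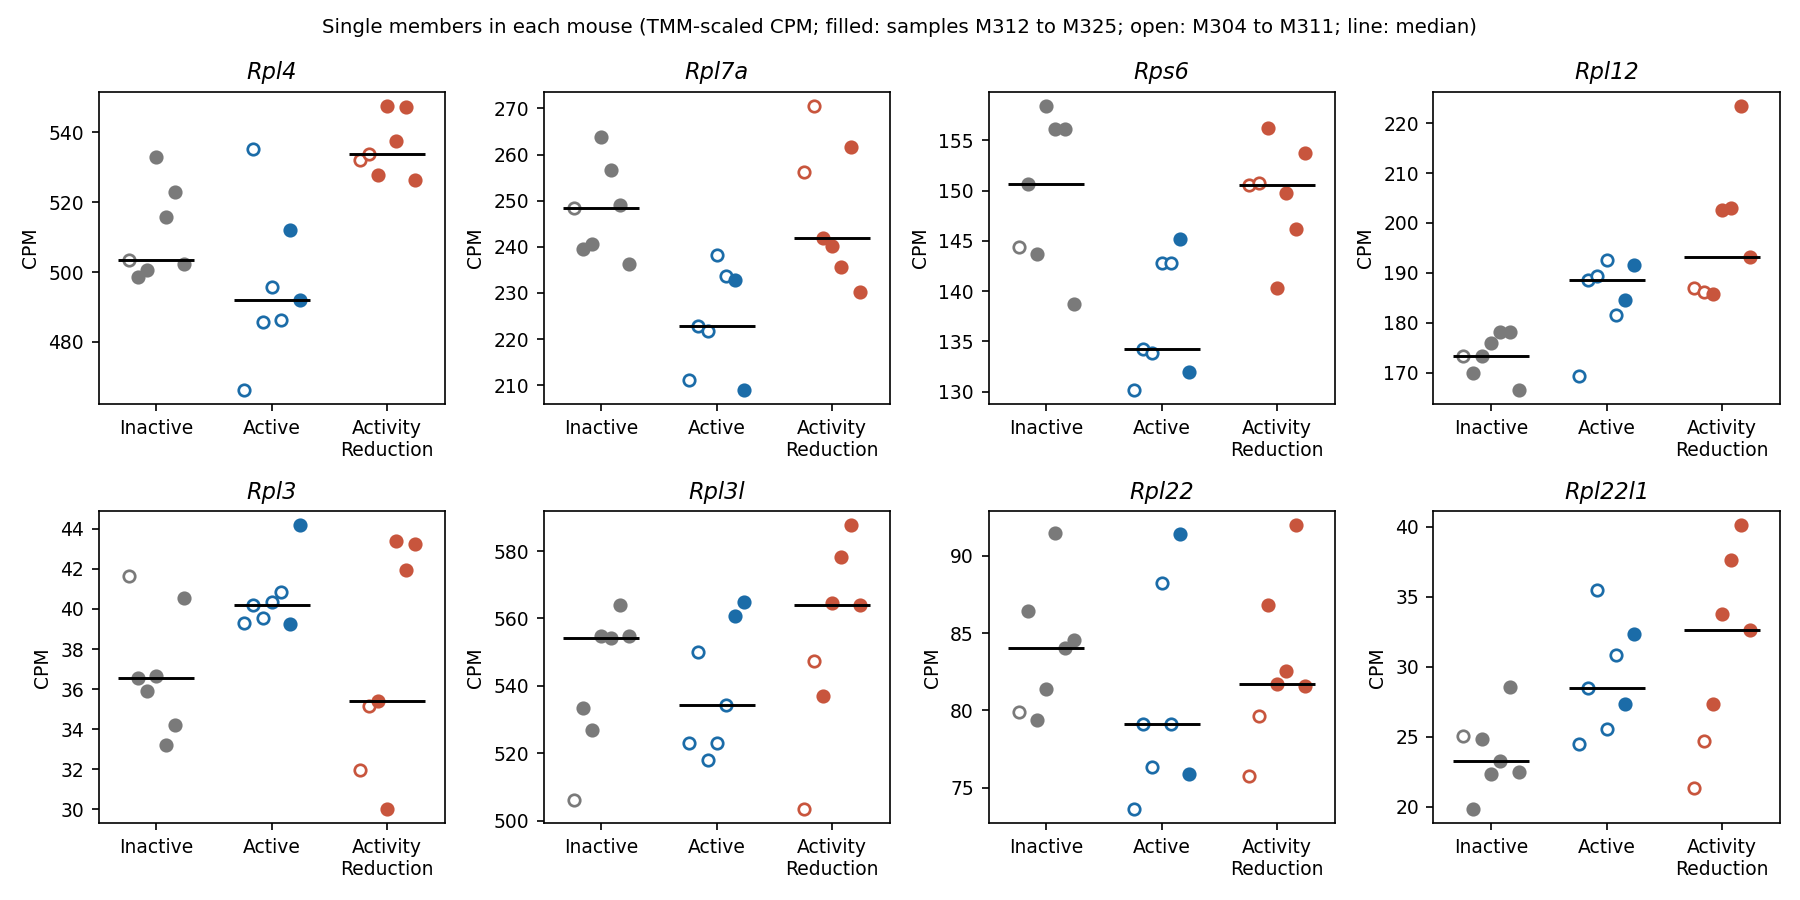
CPM (TMM-scaled) of 8 members in each mouse by group, with lines for medians and open points for samples M304 to M311; the axes do not start at 0. Rpl12 is higher in all Activity Reduction than in all Inactive mice, Rpl7a and Rps6 are lowest in Active mice, and Rpl3l stands at 504 to 588 CPM against 30.0 to 44.2 CPM for Rpl3, a gene of nearly the same coding length.

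This comparison was less bound to the sample numbers but rested on few mice. With the number division held constant 36 members were higher and 0 lower (median 0.095), where 4.54% of all genes were higher. Within samples M312 to M325, with 5 Activity Reduction and 6 Inactive mice, 34 were higher (median 0.10), against 4.09% of all genes. The count fell to 5 without Activity Reduction replicate 6, with a median of 0.049, and to 8, 9 and 11 without Inactive replicates 2, 7 and 1. In the same order 2.54%, 3.14%, 4.01% and 5.13% of all genes were higher. The count rose to 43 without Activity Reduction replicate 1, against 4.05% of all genes. Scaled by library totals, 4 members were higher, against 1.72% of all genes. None of 8 fibroblast, 8 macrophage, 8 endothelial or 20 liver markers passed an unadjusted p of 0.05 here, and the fibroblast median was -0.13. Other markers did. The satellite cell genes Cdh15 (0.14) and Pax7 (0.32) of 6 and the erythroid genes Alas2 (0.46) and Hba-a1 (0.32) of 5 were higher, with summed levels of 42.7 to 52.6 against 40.6 to 48.8 CPM and of 53.8 to 104 against 40.7 to 89.8 CPM. Of 12 fibre markers the slow-fibre genes Myh7 (-0.74 ± 0.28 SE) and Tnnt1 (-0.59 ± 0.24) were lower and Acta1 (0.13) was higher. The tendon gene Scx (0.53) and the Schwann cell gene Sox10 (0.53) were higher, each 1 of 6 in its list, and none of 8 adipocyte markers passed. Their part in the ribosomal protein result was not tested.

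Most other lists of the translation apparatus lay near 0 in this comparison. The 3 ribosomal proteins outside the naming rule did not, and all 3 were above 0, with a median of 0.106. Of these, Rack1 (0.07 ± 0.035 SE) and Fau (0.11 ± 0.067) did not pass an unadjusted p of 0.05. Of 29 initiation factors 1 was higher (Eif6, 0.12, which keeps the subunits apart) and 1 lower (Eif4b, -0.15), with a median of -0.004. Of 41 biogenesis genes 1, Ubtf (0.12), the RNA polymerase I factor, was higher, with a median of -0.006. Of 78 mitochondrial ribosomal protein genes 6 were higher (7.69%, against 4.19% of all genes) and 1 lower. Their median was 0.029, with 56 above 0.

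The comparison of Active with Inactive mice asked what 6 weeks of training changed, and few ribosomal protein genes stood out. In edgeR 2 members were higher at an unadjusted p under 0.05 (2.38%, against 6.18% of all genes) and 3 were lower (3.57%, against 4.69%). Most members lay slightly below 0, 64 of 84, with a median of -0.037 in the small and -0.032 in the large subunit and 0.005 over all genes. None passed both thresholds, where the background was 0%, and the smallest adjusted p was 0.225. DESeq2 also gave 2 higher and 3 lower at an unadjusted p under 0.05, where 3.79% of its genes were higher and 3.34% lower. None passed both thresholds, for which its share of all genes was not taken, and its adjusted p for Rpl7a was 0.0429.

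The lower members were Rpl7a, Rps6 and Rpl17. Rpl7a stood at 236 to 264 CPM in Inactive mice (median 248) and at 209 to 238 CPM in Active mice (median 223), with overlap at the edge only. Its log2 fold change was -0.14 ± 0.041 (SE), with an adjusted p of 0.225 in edgeR and an exact permutation p of 0.00117. Between Activity Reduction and Inactive mice it was 0.002 ± 0.040 (SE).

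Rps6 stood at 139 to 158 CPM in Inactive mice (median 151) and 130 to 145 CPM in Active mice (median 134), and the ranges overlapped. The log2 fold change was -0.12 ± 0.036 (SE), with an adjusted p of 0.234 in edgeR and an exact permutation p of 0.00816. Activity Reduction mice had the same median as Inactive mice, 151 CPM. Rpl17, near the tunnel exit, gave -0.082 ± 0.040 (SE), with an adjusted p of 0.455 in edgeR.

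The higher members were Rpl12 (0.094 ± 0.039 SE) and Rpl22l1 (0.30 ± 0.12), with edgeR adjusted p of 0.407 and 0.383. Their exact permutation p were 0.00991 and 0.0111. Rpl3 was not among them in edgeR, with 33.2 to 41.6 CPM in Inactive (median 36.6) and 39.2 to 44.2 CPM in Active mice (median 40.2). Its log2 fold change was 0.13 ± 0.074 (SE), with an unadjusted p of 0.0864 in edgeR and an exact permutation p of 0.0169.

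Translation factors and biogenesis genes were mostly below 0 in this comparison. Of 29 initiation factors 13 were lower and 0 higher at an unadjusted p under 0.05 (median -0.077), with Eif4b (-0.29 ± 0.072 SE), an S6 kinase target, first. Of 41 biogenesis genes 12 were lower and 0 higher (median -0.071), with Npm1 (-0.19) and Tsr1 (-0.22), which act in subunit maturation, first. Of 7 elongation factors Eef2 (-0.27) and Eef1d (-0.14) were lower and Eef1a1 was higher. The regulators Eif4ebp2 (-0.16) and Tsc2 (-0.10) were lower of 17. Of 78 mitochondrial ribosomal protein genes 1 was higher (1.28%) and 2 were lower (2.56%), with a median of -0.028. Of all genes 6.18% were higher and 4.69% lower. The smallest edgeR adjusted p of these lists was 0.162.

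The slight lowering of the family in Active mice moved with the sample numbers. With the number division held constant the median of the 84 members was 0.013, with 53 above 0, and within samples M312 to M325 (2 Active and 6 Inactive mice) it was 0.015, with 48 above 0. Fibroblast markers (3 of 8 higher, median 0.28), macrophage markers (3 of 8, median 0.36), endothelial markers (3 of 8) and liver markers (3 of 20, median 1.18) were higher in Active than in Inactive mice, as were the erythroid gene Alas2 (0.50) and the fibre genes Mb (0.16) and Myh4 (0.19). In this comparison, where 6.18% of all genes were higher and 4.69% lower, the satellite cell gene Myod1 was lower (-0.39). Their part and that of depth, which did not overlap between these groups, were not tested. All 3 comparisons share groups, so the lower values of Rpl7a and Rps6 in Active mice enter both comparisons that include them.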

How the data were processed

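Values were raw read counts per gene, which the authors made from paired-end reads with fastp, STAR (GRCm39) and featureCounts and deposited unfiltered. The annotation release and strand setting are not given in the sources used here. A second deposited table of normalized values was not used. The whole count table was fitted with edgeR 4.0.16 (R 4.3.3): TMM scaling, filterByExpr, the quasi-likelihood test with all 21 libraries and no covariate, and Benjamini-Hochberg adjustment over 16129 genes. A gene was called at an adjusted p under 0.05 with a log2 fold change beyond 0.25, and was also counted by direction at an unadjusted p under 0.05. DESeq2 1.42.0 was an alternative. Errors of fold changes are SE. The fit was tested on simulated data. Single members were compared by two-sided exact permutation tests of mean log2 CPM (7 against 7 mice). Coding lengths and overlaps came from GENCODE (GRCm39).

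Members, gene lists and tests were chosen with earlier results of these data known. Named members were the 8 of each subunit with the smallest edgeR p per comparison (only those under 0.05), the paralog pairs, the stalk, Rpsa, Rps6, Rpl5, Rpl11, and the 3 highest and 3 lowest per coding length in each subunit. Of each other list the 2 genes with the smallest p could be named, along with Fau and Rack1. A few named members are not reported here, and are left out of the plots by gene. Rpl6l, Rpl7, Rpl37rt, Rpl28 and Tnnt1 were named after their values were seen. Library depth was not equal over the groups and was lowest on average in Active mice. Replicate numbers did not pair the mice.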

Additional observations from a re-analysis of the deposited data

Results flagged for a closer look

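Dixon's test at the 95% level was applied to 48 values (5 shares and ratios and 43 named members) in each group of 7 mice, and 7 of 144 groups held a value apart from the rest. Chance alone gives about 1 in 20, so this number of groups is near what chance gives.

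Activity Reduction replicate 6 was highest in the share of counts on all members (1.401%, others 1.225 to 1.301%), in the share on the large subunit (0.859%, others 0.758 to 0.798%) and in Rps14 (296 CPM, others 247 to 264 CPM). Active replicate 1 was lowest in Rpl6 (176 CPM, others 195 to 202 CPM) and in Rpsa (350 CPM, others 372 to 382 CPM). Active replicate 7 was highest in Rpl3 (44.2 CPM, others 39.2 to 40.8 CPM) and Inactive replicate 6 in Rpl6 (218 CPM, others 197 to 206 CPM).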

How the results depend on the processing

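Members higher at an unadjusted p under 0.05 in Activity Reduction against Active mice numbered 46, and 15 (with 1 lower) with library totals alone, 21 with the number division as a covariate and 2 within samples M312 to M325. In the same order 6.89%, 2.59%, 5.54% and 2.02% of all genes were higher. Leaving out 1 mouse gave 24 to 62 higher (5 to 7.01% of all genes) and 0 to 1 lower. Against Inactive mice they numbered 22, and 4 with library totals alone, 13 with only the 2 groups fitted, 36 with the division as a covariate and 34 within samples M312 to M325. In that order 4.19%, 1.72%, 3.31%, 4.54% and 4.09% of all genes were higher. Leaving out 1 mouse gave 5 to 43 (2.54 to 5.13% of all genes). Active against Inactive mice gave 2 higher and 3 lower, and 1 and 1 within samples M312 to M325, where 3.02% of all genes were higher and 3.06% lower. Leaving out 1 mouse gave 1 to 3 higher (4.47 to 9.18% of all genes) and 2 to 4 lower (3.84 to 5.65% of all genes). The cause of these changes was not tested.

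DESeq2, its size factors in edgeR, TMM without the members, no filter on low counts and the length trend kept each count within 1.5 times. Subunit medians moved by less than the spread between mice (SD 0.078 on the log2 scale) under every alternative run. That limit was close to the medians of Activity Reduction against Inactive mice (0.078 and 0.083). It was wider than those of Active against Inactive mice (-0.037 and -0.032), so it cannot show that they were steady. The median in Active against Inactive mice changed sign with the division held constant. With a replicate block, 53 members were higher in Activity Reduction against Active, 31 against Inactive mice, and 2 higher and 4 lower in Active against Inactive mice. In the same order 6.71% and 4.23% of all genes were higher, and 8.1% higher and 4.47% lower. Same-numbered mice did not as a rule deviate together, with 7 of 21 pairs correlated above 0.1 (r from -0.22 to 0.47). In each comparison 2 or 3 of 14 mice correlated best with their own number. The replicate 1 mice, all labelled M304 to M311, did deviate together in each comparison (r of 0.29, 0.471 and 0.326). Direction was followed for 44 pairs of a named member and a comparison, each with an unadjusted p under 0.05, and none reversed. Many lost that p. Of the 44, 31 did so within samples M312 to M325 and 25 with library totals alone. With the division as a covariate 9 did, with only the 2 groups fitted 9, and under each other setting at most 4. Leaving out 1 mouse did so in 96 of 616 checks of a pair. Direction was not followed for the other named members. Over all members, those above 0 in Active against Inactive mice rose from 20 to 53 with the division held constant.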
